A study of Mus musculus with 16 samples.

Results

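Intestinal myofibroblasts grown alone were compared with intestinal epithelium grown alone, gene by gene, with each gene read on its brightest probe set. The comparison took 5 of the 16 arrays in the series by their titles: 3 of myofibroblasts (titled as fibroblast monocultures, from animals Pl_I, Pl_II and Pl_III) and 2 of epithelial organoids (titled as crypt monocultures, from animals P28 and P30). All 5 came from the small intestine of wild-type C57Bl/6 mice labelled male and killed at 8 to 10 weeks of age. The other arrays held both cell types after co-culture (3 of fibroblasts and 2 of epithelium) and adenoma cells of Apc+/1638N mice (6 arrays of 4 animals), and they enter here through the shared estimate of spread and 1 closing comparison. Organoids are small 3-dimensional epithelial cultures that grow from isolated crypts in Matrigel, a basement membrane gel. In the co-cultures the myofibroblasts were seeded on a porous membrane insert (0.4 µm pores), left overnight in serum-containing medium, and then kept for 24 h in the basal medium. The labels describe no separate conditions for the monocultures, so cell type and the support or medium it grew in cannot be told apart here.

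The wall of the small intestine is lined by an epithelium of absorptive enterocytes with goblet, Paneth, enteroendocrine and tuft cells, all renewed by stem cells at the crypt base. Beneath it lies a connective tissue in which myofibroblasts, cells with both secretory and contractile properties, build collagen-rich matrix and send growth factors, Wnt agonists and BMP inhibitors to the crypt. Epithelial cells in turn secrete Hedgehog ligands that mesenchymal cells receive. The comparison asks which genes each partner brings before the cells are put together.

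Levels are log2 values as the authors deposited them, so a difference of 1 is a doubling, and differences run myofibroblast minus epithelium. The 5 arrays had medians between 3.48 and 3.58. A level of 2.67 (the 30th percentile of all probe sets) was taken as the dim level, and where a cell type averaged below it the difference measured against that level is given as well, as a bound. Myofibroblast arrays correlated with each other at r between 0.968 and 0.986 across genes, and the epithelium pair at 0.987, against 0.692 to 0.703 between the cell types. Genes are not independent replicates, so these are descriptions. The labels carry 1 conflict and the data another. The third myofibroblast array names Pl_III in its title and Pl_II in its source field, and the title was followed. Xist, the RNA of the inactive X chromosome in females, read 2.25, 2.21 and 8.25 in myofibroblasts, against 8.04 and 2.81 in epithelium, and the Y-linked gene Eif2s3y read 8.06, 7.93 and 2.53 in myofibroblasts, against 3.05 and 8.13 in epithelium. On both genes the third myofibroblast array differed from the second, which is titled Pl_II. The third myofibroblast array and the first epithelium array therefore go against the male label, and leaving both out left 4013 higher and 3463 lower calls, with 77.8% of the calls kept.

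Collagen genes were higher in myofibroblasts in 20 of 23 cases and contractile genes in 21 of 24, while enterocyte genes were lower in 22 of 23 cases and respiratory chain genes in 26 of 28. Of 18095 genes tested, 4791 were higher in myofibroblasts (26.5% of all tested) and 4383 were lower (24.2%) at an adjusted p under 0.05 (limma, Benjamini-Hochberg), and these shares are the background for every count of list members. Differences of at least 16-fold were found for 581 higher and 612 lower genes, and of at least 64-fold for 161 and 258. The median difference over all genes was -0.02, and the median absolute difference was 0.57. Of the 18095 genes, 6005 had every myofibroblast array above both epithelium arrays and 6013 had every one below both. Such separation was therefore common, and where it is given for single genes below it is a description. For 319 of the higher genes the epithelium mean lay under the dim level, and for 546 of the lower genes the myofibroblast mean did.  The labels do not say whether samples of a group came from separate cultures beyond naming the animal. The p-values rest on a spread pooled within all groups of the series, adenoma included. Monoculture and co-culture samples of an animal counted there as independent.

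**Figure D1:**
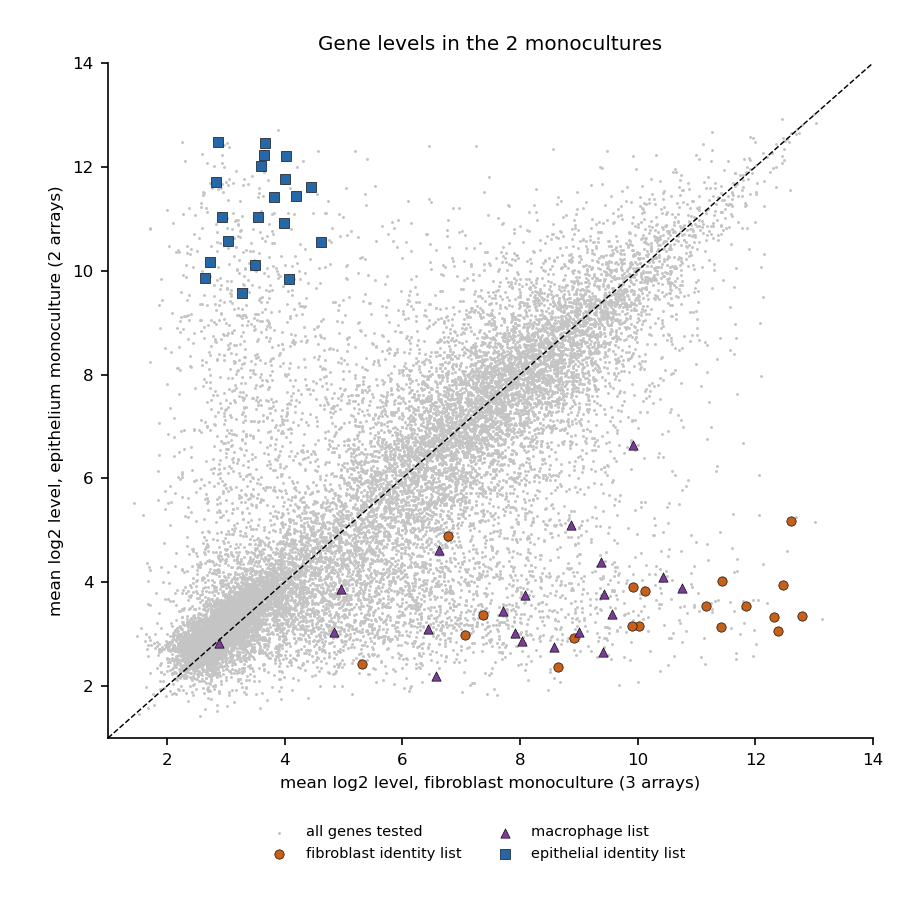
Mean log2 level of each tested gene in myofibroblast monoculture (horizontal axis, 3 arrays) and epithelium monoculture (vertical axis, 2 arrays). Grey dots are all tested genes, orange circles the fibroblast list, purple triangles the macrophage list and blue squares the epithelial list. The dashed line marks equal levels. The epithelial list sits at the upper left with differences from -9.61 to -5.76, and the fibroblast list at the lower right with differences from 1.90 to 9.44.

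The largest rises were in matrix genes and the largest falls in enterocyte genes. Bgn, which encodes the small matrix proteoglycan biglycan, read 13.19, 13.08 and 13.14 on the myofibroblast arrays and 2.88 and 3.70 on the epithelium arrays, a difference of 9.85 (SE 0.52, adjusted p = 1.24e-08), while its second probe set differed by 6.44. Fn1, which encodes fibronectin, read 12.64, 12.64 and 13.12 in myofibroblasts, against 3.33 and 3.38 in epithelium, a difference of 9.44 (SE 0.44, adjusted p = 4.10e-09). Lox, the enzyme that crosslinks collagen and elastin, read 11.77, 11.91 and 12.20 in myofibroblasts, against 2.75 and 2.42 in epithelium, a difference of 9.38 (SE 0.17, adjusted p = 5.48e-12), or 9.29 against the dim level. For each of these genes all myofibroblast arrays lay above both epithelium arrays. Dcn (decorin) followed at 9.32 and Ptgs2, the inducible cyclooxygenase, at 9.20. In the other direction Sis, the sucrase-isomaltase of the brush border, read 2.26, 2.24 and 2.29 on the myofibroblast arrays and 12.47 and 12.47 on the epithelium arrays, a difference of -10.21 (SE 0.22, adjusted p = 1.20e-11), or -9.80 against the dim level. Cyp2c55, an intestinal cytochrome P450, read 2.14, 2.46 and 2.30 in myofibroblasts, against 12.01 and 12.23 in epithelium, a difference of -9.82 (SE 0.54, adjusted p = 1.88e-08), while its second probe set differed by -0.88. Every epithelium array lay above every myofibroblast array for both. Ugt2b34, a glucuronidating enzyme, followed at -9.64, Muc13, a membrane mucin, at -9.61, and Rbp2, the retinol carrier of enterocytes, at -9.45.

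Other genes among the 15 largest rises were Grem1 (9.15), Lilrb4a (9.04), Postn (8.99), Ccl2 (8.91), Ccl3 (8.74), Cybb (8.71), Msn (8.59), Tnc (8.59), Col1a1 (8.54) and Plxdc2 (8.51). Lilrb4a is an inhibitory receptor of myeloid cells and Cybb the catalytic subunit of the phagocyte NADPH oxidase, while Msn (moesin) links actin to the membrane. Other genes among the 15 largest falls were Alpi (-9.43), Fabp2 (-9.39), Lypd8 (-9.33), Apob (-9.29), Akp3 (-9.21), Cyp3a13 (-9.18), Cyp2b10 (-9.14), Ces2a (-9.11), 2010106E10Rik (-9.08) and Prap1 (-9.02). Alpi and Akp3 are intestinal alkaline phosphatases, Apob is the structural protein of chylomicrons, and Lypd8 is a secreted protein that keeps flagellated bacteria from the colonic epithelium.

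Both cultures carried the defining markers of their label. All 20 genes of the epithelial list were lower in myofibroblasts, with a median of -7.52. Epcam, an epithelial adhesion molecule, read 2.55, 2.81 and 3.45 on the myofibroblast arrays and 10.99 and 11.09 on the epithelium arrays, a difference of -8.10 (SE 0.39, adjusted p = 5.15e-09). Vil1 (villin, of the microvillus core) read 2.69, 3.31 and 2.52 in myofibroblasts, against 11.74 and 11.67 in epithelium, a difference of -8.87 (SE 0.29, adjusted p = 2.37e-10). Averaged over the list, the level was 3.33, 3.74 and 3.65 on the myofibroblast arrays and 11.11 and 11.19 on the epithelium arrays. All 19 tested genes of the fibroblast list were higher, with a median of 6.86, and Fbn1 was not analysed here. Dcn read 12.44, 12.26 and 12.48 on the myofibroblast arrays and 2.84 and 3.30 on the epithelium arrays. Pdgfra, a receptor that marks intestinal fibroblasts, read 11.31, 11.06 and 7.70 in myofibroblasts, against 3.09 and 3.24 in epithelium, a difference of 6.86 (SE 1.13, adjusted p = 2.62e-04), and its level on the third myofibroblast array was well under the other 2 while still above epithelium, with a difference of 8.02 without the third myofibroblast array (adjusted p = 3.27e-05). The smallest rises of the list were S100a4 (1.90, SE 0.36, adjusted p = 8.30e-04) and Fap (2.88, SE 0.67, adjusted p = 0.00327). In bulk samples fewer cells of a type and less RNA per cell cannot be told apart.

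Markers of macrophages were also present in the myofibroblast cultures. Of 20 genes on that list 18 were higher, with a median of 4.64. Its mean level was 7.77, 7.77 and 8.37 on the myofibroblast arrays and 3.66 and 3.58 on the epithelium arrays. Cd68 (a lysosomal glycoprotein of macrophages) read 10.52, 10.17 and 10.59 on the myofibroblast arrays and 3.98 and 4.20 on the epithelium arrays, a difference of 6.34 (SE 0.26, adjusted p = 1.40e-09). Adgre1, which encodes F4/80, read 8.96, 9.13 and 8.94 in myofibroblasts, against 3.13 and 2.94 in epithelium, a difference of 5.97 (SE 0.21, adjusted p = 3.86e-10). Csf1r, the receptor for macrophage colony-stimulating factor, read 9.63, 8.96 and 9.71 in myofibroblasts, against 3.95 and 3.59 in epithelium, a difference of 5.66 (SE 0.26, adjusted p = 3.76e-09). All 3 myofibroblast arrays carried these genes at high level. C1qb, a complement subunit made by resident macrophages, read 8.43, 9.61 and 10.68 in myofibroblasts, against 3.55 and 3.22 in epithelium, a difference of 6.19 (SE 0.56, adjusted p = 1.59e-06). Aif1 (1.08, SE 0.52, adjusted p = 0.106) and the scavenger receptor Cd163 (0.06, SE 0.13, adjusted p = 0.737) did not pass. Genes that macrophages also express, such as Itgb2, Mmp12 and many chemokines, were higher in myofibroblasts too. The part of macrophages in those results was not tested. Among the myofibroblast arrays the macrophage list was highest on the third, while the chemokine and cytokine list averaged 7.72, 7.59 and 6.67 and was lowest there.

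Markers of other cell types were mixed. Of 9 tested genes of other leukocytes 1 was higher (Cd4, at 1.06, lost without myofibroblast array 3 or epithelium array 1 or 2, adjusted p from 0.083 to 0.12) and 1 lower (Kit, -3.47, SE 0.60, adjusted p = 3.64e-04). The T-cell genes Cd3e and Cd3g were dim in all groups. Of 11 endothelial genes 0 were higher, also 0 at an unadjusted p under 0.05, and 5 were lower, led by Lyve1 (-2.70, SE 0.30, adjusted p = 8.45e-06). Of 9 neuronal and glial genes, Tubb3 (5.78, SE 0.37, adjusted p = 7.50e-08) and Uchl1 (3.31, SE 0.38, adjusted p = 1.29e-05, although its other probe set read -0.22) were higher, and Erbb3 (-6.42, SE 0.23, adjusted p = 4.47e-10) and Ret (-2.15, SE 0.23, adjusted p = 8.41e-06) were lower, while the glial genes Sox10 (0.62, SE 0.42, adjusted p = 0.246), S100b (-0.75, SE 0.33, adjusted p = 0.0737) and Gfap (0.18, SE 0.28, adjusted p = 0.622) did not pass. Of the 10 genes for smooth muscle and interstitial cells of Cajal 7 were higher, among them Cnn1 and Actg2, which are also contractile genes of myofibroblasts, and Myh11, the smooth muscle myosin heavy chain (5.82, SE 0.51, adjusted p = 1.29e-06). Kit and Ano1 (-2.92, SE 0.56, adjusted p = 8.40e-04), which mark Cajal cells, were lower in myofibroblasts. Among 8 mesothelial and fat cell genes, Fabp4, also a gene of macrophages, was higher (4.06, SE 0.28, adjusted p = 1.30e-07), Msln (mesothelin) was lower (-4.03, SE 0.35, adjusted p = 1.16e-06) and Wt1 did not pass (0.44, SE 0.32, adjusted p = 0.274).

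**Figure D2:**
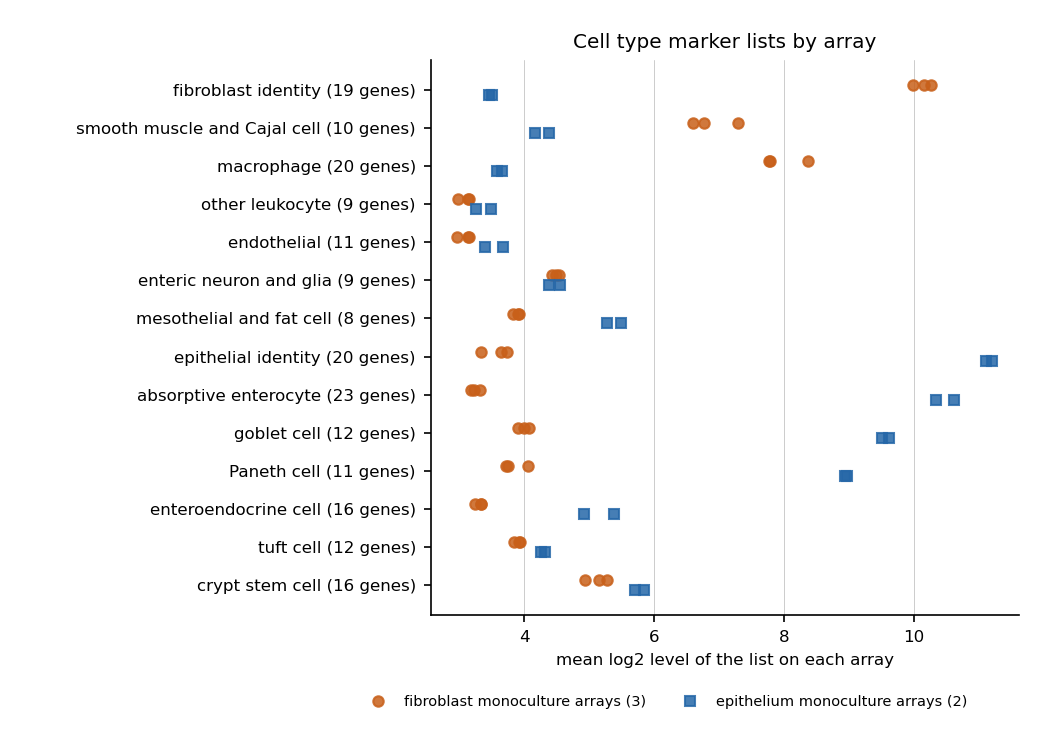
Mean log2 level of 14 cell type marker lists on each array (horizontal axis), with the number of tested genes beside each name. Orange circles are the 3 myofibroblast arrays and blue squares the 2 epithelium arrays. Macrophage markers averaged 7.77, 7.77 and 8.37 on the myofibroblast arrays and 3.66 and 3.58 on the epithelium arrays, while endothelial markers averaged 3.13, 2.97 and 3.15 on the myofibroblast arrays and 3.68 and 3.40 on the epithelium arrays.

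Genes of the epithelial lineages were lower in myofibroblasts. Enterocyte genes fell in 22 of 23 cases, with a median of -7.74, and only Cubn, a vitamin B12 receptor subunit, did not pass (-1.33, SE 0.54, adjusted p = 0.0567). Alpi read 3.02, 2.88 and 3.19 on the myofibroblast arrays and 12.24 and 12.68 on the epithelium arrays, a difference of -9.43 (SE 0.26, adjusted p = 5.13e-11). Fabp2, a fatty acid carrier, read 2.62, 2.73 and 2.72 in myofibroblasts, against 12.20 and 11.96 in epithelium, a difference of -9.39 (SE 0.39, adjusted p = 1.57e-09). No myofibroblast array reached 4 for either. Goblet genes fell in 11 of 12 cases (median -6.85), including the gel-forming mucin Muc2 (-7.70, SE 1.38, adjusted p = 4.99e-04) and Zg16 (-8.81, SE 1.58, adjusted p = 5.14e-04), a lectin of the mucus layer. Creb3l1, a transcription factor of the secretory pathway that also acts in collagen-making cells, was the exception and rose (2.82, SE 0.28, adjusted p = 3.36e-06). Paneth genes fell in 8 of 11 cases (median -4.87), led by the alpha-defensin Defa24 (-8.95, SE 1.99, adjusted p = 0.00239), while Nupr1, a stress-response gene, rose (1.41, SE 0.52, adjusted p = 0.0391, lost without myofibroblast array 1, 2 or 3 or epithelium array 1 or 2, adjusted p from 0.067 to 0.13). Lyz1 (-6.08, SE 2.41, adjusted p = 0.053) and Mmp7 (-4.87, SE 1.97, adjusted p = 0.0575) had large differences and missed the threshold. Their spread was estimated over all groups, adenoma included, and its part in the missed calls was not tested. With the 5 monoculture arrays fitted alone, 10 of the 11 Paneth genes were called lower.

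Enteroendocrine, tuft and stem cell lists had medians nearer to 0. Of 16 enteroendocrine genes 9 fell (median -0.92), among them the secretory granule proteins Chgb (-6.28, SE 0.24, adjusted p = 8.21e-10) and Chga (-5.13, SE 0.29, adjusted p = 2.36e-08) and the serotonin-synthesising enzyme Tph1 (-4.31, SE 0.40, adjusted p = 2.10e-06), while the hormone gene Pyy did not pass (-0.15, SE 0.40, adjusted p = 0.784). Of 12 tuft genes 7 fell (median -0.63), led by Rgs13 (-2.07, SE 0.19, adjusted p = 1.82e-06), with Pou2f3, the master factor of the lineage, at -1.75 (SE 0.27, adjusted p = 1.62e-04). Alox5ap, which leukocytes use for leukotriene synthesis, and Dclk1, a tuft marker in mouse that other cells also express, rose by 3.17 (SE 0.31, adjusted p = 2.97e-06) and 2.19 (SE 0.39, adjusted p = 5.28e-04). Of 16 stem cell genes 5 fell and 3 rose, 31.2% and 18.8% beside the background of 24.2% and 26.5% (median -0.35). The falls were led by Prom1 (-5.02, SE 0.19, adjusted p = 5.92e-10), Olfm4 (-4.59, SE 1.10, adjusted p = 0.00388) and Rnf43 (-3.92, SE 0.38, adjusted p = 3.07e-06). Lgr5, the defining marker of crypt base stem cells, read 3.76, 3.94 and 4.12 on the myofibroblast arrays and 4.25 and 4.17 on the epithelium arrays, a difference of -0.27 (SE 0.26, adjusted p = 0.425), and missed the threshold. Cd44, an adhesion receptor and Wnt target, rose (2.56, SE 0.35, adjusted p = 5.26e-05). Without the first myofibroblast array 5 stem cell genes were called higher.

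Transcription factors followed the same division. Of 28 intestinal epithelial factors 25 fell and 0 rose, also 0 at an unadjusted p under 0.05 (median -4.72). Hnf4g, an enterocyte nuclear receptor, read 2.37, 2.84 and 2.65 on the myofibroblast arrays and 11.38 and 11.51 on the epithelium arrays, a difference of -8.83 (SE 0.19, adjusted p = 1.20e-11). Hnf4a read 4.19, 4.33 and 4.92 in myofibroblasts, against 11.08 and 11.15 in epithelium, a difference of -6.64 (SE 0.29, adjusted p = 2.34e-09). The caudal homeobox factor Cdx2, which specifies intestine, differed by -5.79 (SE 0.46, adjusted p = 5.10e-07). Every epithelium array lay above every myofibroblast array for these 3 genes. Klf4 (-0.92, SE 0.72, adjusted p = 0.316), Grhl1 (-0.38, SE 0.20, adjusted p = 0.126) and Prdm1 (-0.13, SE 0.38, adjusted p = 0.809) did not pass. Of 31 mesenchymal factors 17 rose and 1 fell (median 1.01). Snai2, a repressor of epithelial genes, read 9.57, 9.90 and 9.49 on the myofibroblast arrays and 3.03 and 3.08 on the epithelium arrays, a difference of 6.60 (SE 0.17, adjusted p = 3.47e-11). Zeb1, another such repressor, read 6.96, 7.17 and 7.91 in myofibroblasts, against 2.94 and 2.41 in epithelium, a difference of 4.67 (SE 0.45, adjusted p = 2.83e-06). Foxf1, a Hedgehog target of gut mesenchyme, read 10.77, 10.50 and 10.002 in myofibroblasts, against 4.20 and 3.84 in epithelium, a difference of 6.40 (SE 0.31, adjusted p = 6.28e-09). Nkx2-3, a factor of intestinal mesenchyme, rose as well (4.73, SE 0.25, adjusted p = 1.51e-08). Osr2 went the other way (-5.63, SE 1.09, adjusted p = 9.01e-04): it read 2.998, 2.64 and 2.58 on the myofibroblast arrays and 10.27 and 6.47 on the epithelium arrays, so the epithelium arrays differed widely from each other, and the difference was -3.73 without the first epithelium array (adjusted p = 0.0176).

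Homeobox genes of the Hox clusters, which record position along the body axis, rose in 14 of 34 tested cases and fell in 3 (median 0.59, and 0.34 without the third myofibroblast array). Every gene of the B cluster from Hoxb2 to Hoxb9 was higher, from 2.31 for Hoxb7 to 4.75 (SE 0.33, adjusted p = 1.57e-07) for Hoxb9. In the C cluster Hoxc4, Hoxc5, Hoxc6 and Hoxc8 were higher, with Hoxc8 at 4.76 (SE 0.41, adjusted p = 1.13e-06) and Hoxc6 at 4.30 (SE 0.27, adjusted p = 7.08e-08). Hoxc8 read 8.27, 8.30 and 7.41 on the myofibroblast arrays and 3.39 and 3.08 on the epithelium arrays. In the other clusters Hoxa6 (1.14, SE 0.27, adjusted p = 0.0035, lost without epithelium array 1, adjusted p = 0.065) and Hoxd8 (1.22, SE 0.43, adjusted p = 0.031, lost without myofibroblast array 1 or 2 or epithelium array 1 or 2, adjusted p from 0.079 to 0.13) were the genes that rose. The 3 lower genes, Hoxd13 (-0.63, SE 0.17, adjusted p = 0.00846, lost without epithelium array 2, adjusted p = 0.12), Hoxa10 (-0.60, SE 0.22, adjusted p = 0.04, lost without myofibroblast array 1 or 2 or epithelium array 1 or 2, adjusted p from 0.06 to 0.17) and Hoxc12 (-0.41, SE 0.15, adjusted p = 0.0378, lost without myofibroblast array 1, 2 or 3 or epithelium array 1 or 2, adjusted p from 0.053 to 0.16), read under 4 on every array of both cell types.

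The promoters of genes with differences of at least 4 on the log2 scale were read from RefSeq (GRCm38.p6), 250 bases before to 50 after the start, for 16 of 20 epithelial identity genes, 18 of 19 enterocyte genes and 10 of 13 contractile genes (not Cdh1, Krt19, Cdh17, St14, Mep1b, Tagln, Myh11 and Actg2). The E-box letters CACCTG, which repressors of the Snail and Zeb families recognise, occurred on either strand in 10 of the 16 epithelial identity windows (62.5%), in 4 of the 18 enterocyte windows (22.2%), in 3 of the 10 contractile windows (30%) and in 20% of all 27025 promoters. The CDX letters TTTAT occurred in 10 of the enterocyte windows (55.6%), against 40.9% of all promoters, and the HNF1 letters GTTAAT in 3 (16.7%), against 7.2%. In the epithelial identity windows the shares were 43.8% for TTTAT and 6.25% for GTTAAT, and in the contractile windows 30% and 0%. The CArG box, the serum response factor motif of contractile genes, was searched only in its strict form, CCWWWWWWGG with W for A or T. That form was in 1 of the 10 contractile windows, that of Myl9 (10%). It was in 1 of the 16 epithelial identity windows, that of Vil1 (6.25%), and in 1.57% of all promoters. Forms with another letter were not counted, such as ccctatatgg and ccttgtttgg in the Acta2 window, so a count of 0 does not mean that a gene lacks the element. The contractile windows include that of Myh14, which was lower in myofibroblasts. TTTAT can overlap a CArG box or a TATA box. A match is a run of letters and not a measured site. Shown are the 250 bases before the start of 2 epithelial genes with E-box matches (Epcam, chr17:87635729-87635978, plus strand, and Cldn4, chr5:134946935-134947184, minus strand), of Sis with its TTTAT matches (chr3:72967864-72968113, minus strand) and of Myl9 with its CArG box (chr2:156775214-156775463, plus strand). Each reads 5′ to 3′ on the gene's strand, with the matches in capitals.
Epcam: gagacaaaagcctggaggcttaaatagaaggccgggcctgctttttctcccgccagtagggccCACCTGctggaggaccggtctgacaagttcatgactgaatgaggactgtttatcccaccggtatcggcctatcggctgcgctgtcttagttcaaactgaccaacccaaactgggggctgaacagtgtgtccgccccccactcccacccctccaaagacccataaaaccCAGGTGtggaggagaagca
Cldn4: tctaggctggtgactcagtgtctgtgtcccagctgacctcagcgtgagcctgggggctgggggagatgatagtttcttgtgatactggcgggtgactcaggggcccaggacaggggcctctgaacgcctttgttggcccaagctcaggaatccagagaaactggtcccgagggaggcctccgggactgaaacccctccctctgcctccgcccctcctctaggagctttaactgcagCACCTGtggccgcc
Sis: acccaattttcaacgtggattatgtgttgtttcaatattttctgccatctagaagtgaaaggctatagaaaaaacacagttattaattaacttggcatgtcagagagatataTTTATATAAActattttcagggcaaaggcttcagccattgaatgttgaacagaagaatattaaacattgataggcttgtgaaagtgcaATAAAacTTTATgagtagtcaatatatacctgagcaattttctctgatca
Myl9: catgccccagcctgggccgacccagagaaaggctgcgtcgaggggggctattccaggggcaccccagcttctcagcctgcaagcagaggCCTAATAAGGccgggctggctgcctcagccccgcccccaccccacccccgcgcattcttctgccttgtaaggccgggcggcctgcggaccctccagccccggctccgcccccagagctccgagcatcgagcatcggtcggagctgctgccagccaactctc

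MicroRNA loci separated the cultures as well. The arrays used here measure RNA from the locus and do not tell a mature arm from its precursor. Of 14 loci tested 9 were lower in myofibroblasts and 4 higher (median -1.80), with 2 called higher without the second epithelium array. Mature sequences were found in RefSeq (GRCm38.p6) for 11 of the 13 called loci (not Mir143 and Mir145a). Each locus gives 2 mature arms with different seeds. Shown is 1 arm of each lower locus except Mir31, chosen because on that arm loci on different chromosomes carry the same seed (bases 2 to 8, in capitals). These arms fall into 4 seed groups. Of the miR-200 family, which targets Zeb1 and Zeb2 messages, miR-200b-3p comes from chr4:156055685-156055706 on the minus strand and miR-200c-3p from chr6:124718324-124718346 on the minus strand, while miR-200a-3p comes from chr4:156054911-156054932 on the minus strand and miR-141-3p from chr6:124717917-124717938 on the minus strand. The pair miR-192-5p (chr19:6264857-6264877 on the plus strand) and miR-215-5p (chr1:185313610-185313630 on the plus strand) shares another seed, and miR-194-5p is encoded beside both, at chr1:185313325-185313346 on the plus strand and chr19:6264658-6264679 on the plus strand.
miR-200b-3p: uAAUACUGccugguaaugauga
miR-200c-3p: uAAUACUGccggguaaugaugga
miR-200a-3p: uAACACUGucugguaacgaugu
miR-141-3p: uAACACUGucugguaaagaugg
miR-192-5p: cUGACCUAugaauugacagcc
miR-215-5p: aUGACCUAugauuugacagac
miR-194-5p: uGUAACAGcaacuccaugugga

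The widest gaps were those of Mir215, Mir194-1 and Mir192. Mir215 read 2.33, 2.57 and 2.07 on the myofibroblast arrays and 9.12 and 9.14 on the epithelium arrays, a difference of -6.81 (SE 0.17, adjusted p = 2.97e-11). Mir192 read 2.04, 2.94 and 2.20 in myofibroblasts, against 8.12 and 8.20 in epithelium, a difference of -5.77 (SE 0.30, adjusted p = 9.70e-09). Mir194-1, the neighbour of Mir215, read 4.29, 5.56 and 4.42 in myofibroblasts, against 10.65 and 10.53 in epithelium, a difference of -5.83 (SE 0.34, adjusted p = 3.29e-08). These loci are rich in intestinal epithelium, and none of the myofibroblast arrays came within 4 log2 units of the epithelium arrays. Mir194-2 fell by less (-1.07, SE 0.37, adjusted p = 0.0297, lost without myofibroblast array 1 or 3 or epithelium array 1, adjusted p from 0.061 to 0.5). In the miR-200 family Mir200b read 2.51, 1.96 and 2.77 on the myofibroblast arrays and 6.65 and 6.55 on the epithelium arrays, a difference of -4.19 (SE 0.51, adjusted p = 2.02e-05), followed by Mir200a (-2.61, SE 0.45, adjusted p = 3.92e-04), Mir200c (-2.37, SE 0.55, adjusted p = 0.00343) and Mir141 (-1.23, SE 0.20, adjusted p = 2.00e-04). Mir31 was lower too (-2.36, SE 0.45, adjusted p = 8.66e-04). Mir145a (4.27, SE 0.60, adjusted p = 6.96e-05) and Mir143 (3.21, SE 0.80, adjusted p = 0.0052), which are abundant in smooth muscle and other contractile mesenchyme, were higher. Mir143 read 4.99, 6.25 and 7.67 in myofibroblasts, against 3.27 and 2.91 in epithelium, so the myofibroblast arrays spread over more than 2 log2 units and still lay above epithelium. Mir221 (0.82, SE 0.21, adjusted p = 0.00635, lost without epithelium array 2, adjusted p = 0.062) and Mir199a-1 (0.65, SE 0.21, adjusted p = 0.0247, lost without myofibroblast array 1 or epithelium array 2, adjusted p from 0.059 to 0.17) rose by less, and Mir222 did not pass (0.003 (SE 0.22, adjusted p = 0.993)).

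RNA-binding regulators of splicing showed a split of the same kind. Of 15 genes 9 rose and 3 fell. Esrp1, the epithelial splicing regulator, read 3.004, 2.88 and 2.99 on the myofibroblast arrays and 8.69 and 8.86 on the epithelium arrays, a difference of -5.82 (SE 0.18, adjusted p = 1.65e-10), and Esrp2 differed by -4.58 (SE 0.25, adjusted p = 1.76e-08). Rbm47, an epithelial cofactor of RNA editing and splicing, also fell (-2.89, SE 0.28, adjusted p = 3.15e-06). Among the rises Qk, the quaking protein, read 8.47, 8.63 and 8.80 on the myofibroblast arrays and 2.10 and 2.62 on the epithelium arrays, a difference of 6.27 (SE 1.41, adjusted p = 0.00258), or 5.96 against the dim level. Khdrbs3 (4.94, SE 0.44, adjusted p = 1.32e-06), Celf2 (2.13, SE 0.25, adjusted p = 1.55e-05), Ptbp2 (2.06, SE 0.28, adjusted p = 5.95e-05), Rbfox2 (1.67, SE 0.21, adjusted p = 2.38e-05) and Mbnl1 (1.19, SE 0.23, adjusted p = 8.25e-04) rose as well. Igf2bp3 (-3.30, SE 1.41, adjusted p = 0.0696), Srsf1 (0.30, SE 0.17, adjusted p = 0.161) and Celf1 (0.24, SE 0.12, adjusted p = 0.124) did not pass.

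Extracellular matrix genes rose in myofibroblasts on most lists. Of 23 collagen genes 20 rose and 0 fell, against 1 at an unadjusted p under 0.05 (median 4.42). Col1a1 read 12.48, 12.40 and 12.55 on the myofibroblast arrays and 4.07 and 3.80 on the epithelium arrays, a difference of 8.54 (SE 0.18, adjusted p = 1.06e-11). Col3a1 read 11.21, 10.96 and 11.34 in myofibroblasts, against 3.76 and 3.32 in epithelium, a difference of 7.62 (SE 0.27, adjusted p = 4.31e-10). Every collagen array value in myofibroblasts for these 2 genes was above 10, and none in epithelium reached 5. Col12a1, a fibril-associated collagen, rose by 7.65 (SE 0.25, adjusted p = 2.61e-10). Col8a2 (-0.39, SE 0.17, adjusted p = 0.0787), Col4a6 (0.26, SE 0.14, adjusted p = 0.145) and Col17a1 (-0.08, SE 0.21, adjusted p = 0.783), the collagen of hemidesmosomes, did not pass. Of the 16 genes for collagen synthesis and crosslinking 15 rose (median 5.50). Loxl1, a lysyl oxidase, rose by 8.46 (SE 0.19, adjusted p = 1.78e-11), Plod2, a lysyl hydroxylase, by 8.09 (SE 0.89, adjusted p = 9.33e-06), and the collagen chaperone Serpinh1 by 7.66 (SE 0.22, adjusted p = 9.03e-11). P4hb, a disulphide isomerase that all secretory cells use, was the exception (-0.57, SE 0.14, adjusted p = 0.00367).

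Basement membrane genes divided by subunit. Of 15 genes 11 rose and 2 fell. Lamb1 read 11.28, 11.43 and 11.41 on the myofibroblast arrays and 3.79 and 3.51 on the epithelium arrays, a difference of 7.72 (SE 0.27, adjusted p = 3.86e-10), and Nid1 (nidogen) differed by 6.76 (SE 0.28, adjusted p = 1.66e-09), Col4a1 by 6.84 (SE 0.57, adjusted p = 8.36e-07) and the proteoglycan Hspg2 (perlecan) by 5.20 (SE 0.23, adjusted p = 2.28e-09). Lama4 read 9.31, 9.40 and 5.27 in myofibroblasts, against 3.001 and 2.61 in epithelium, a difference of 5.19 (SE 1.19, adjusted p = 0.00305), with the third myofibroblast array about 4 log2 units under the other 2, and it was 6.55 without the third myofibroblast array (adjusted p = 1.09e-04). Lamb3 read 3.81, 3.52 and 3.73 on the myofibroblast arrays and 8.55 and 8.89 on the epithelium arrays, a difference of -5.03 (SE 0.25, adjusted p = 8.00e-09), and Lama3 differed by -2.21 (SE 0.26, adjusted p = 1.43e-05). Both encode chains of laminin-332, the epithelial laminin bound by the integrin of hemidesmosomes. Among 21 elastic fibre and glycoprotein genes 16 rose and 0 fell, against 0 at an unadjusted p under 0.05 (median 5.54), with Postn (periostin) at 8.99 (SE 0.32, adjusted p = 4.95e-10), Tnc (tenascin C) at 8.59 (SE 0.39, adjusted p = 3.35e-09), Fbln2 at 8.27 (SE 0.19, adjusted p = 1.85e-11) and Thbs1 (thrombospondin 1) at 7.44 (SE 0.53, adjusted p = 1.83e-07). Eln, which encodes elastin itself, did not pass (2.12, SE 1.15, adjusted p = 0.149), nor did Dpt (3.42, SE 1.39, adjusted p = 0.0586) and Fbln1 (-2.16, SE 1.01, adjusted p = 0.0956).

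Proteoglycan genes rose in 14 of 18 cases (median 4.20), with Ogn at 7.76 (SE 0.44, adjusted p = 2.37e-08), Sdc2 at 6.65 (SE 0.34, adjusted p = 8.88e-09) and Lum at 6.28 (SE 0.24, adjusted p = 7.15e-10). Hyal2, a hyaluronidase, fell (-1.17, SE 0.28, adjusted p = 0.00441), as did Acan (-0.57, SE 0.17, adjusted p = 0.0161, lost without myofibroblast array 1 or epithelium array 2, adjusted p from 0.055 to 0.11). Matrix proteases and their inhibitors rose in 20 of 23 cases (median 5.56) and 0 fell, against 1 at an unadjusted p under 0.05. Mmp2, a gelatinase of fibroblasts, read 9.22, 10.08 and 10.41 on the myofibroblast arrays and 3.03 and 3.27 on the epithelium arrays, a difference of 6.75 (SE 0.30, adjusted p = 2.75e-09). Timp1, the inhibitor of metalloproteases, read 10.60, 11.11 and 11.01 in myofibroblasts, against 3.73 and 4.22 in epithelium, a difference of 6.93 (SE 0.21, adjusted p = 9.98e-11). Mmp12, the elastase of macrophages, read 10.51, 10.70 and 10.31 in myofibroblasts, against 2.60 and 2.21 in epithelium, a difference of 8.11 (SE 0.19, adjusted p = 1.85e-11). Myofibroblast arrays lay above both epithelium arrays for all 3. Mmp9 (6.58, SE 0.70, adjusted p = 7.10e-06), Timp3 (6.55, SE 0.91, adjusted p = 6.34e-05) and Adamts12 (6.73, SE 0.31, adjusted p = 3.86e-09) also rose, while Timp4 (-0.30, SE 0.23, adjusted p = 0.312) and Mmp28 (-0.28, SE 0.36, adjusted p = 0.553) did not pass.

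**Figure D3:**
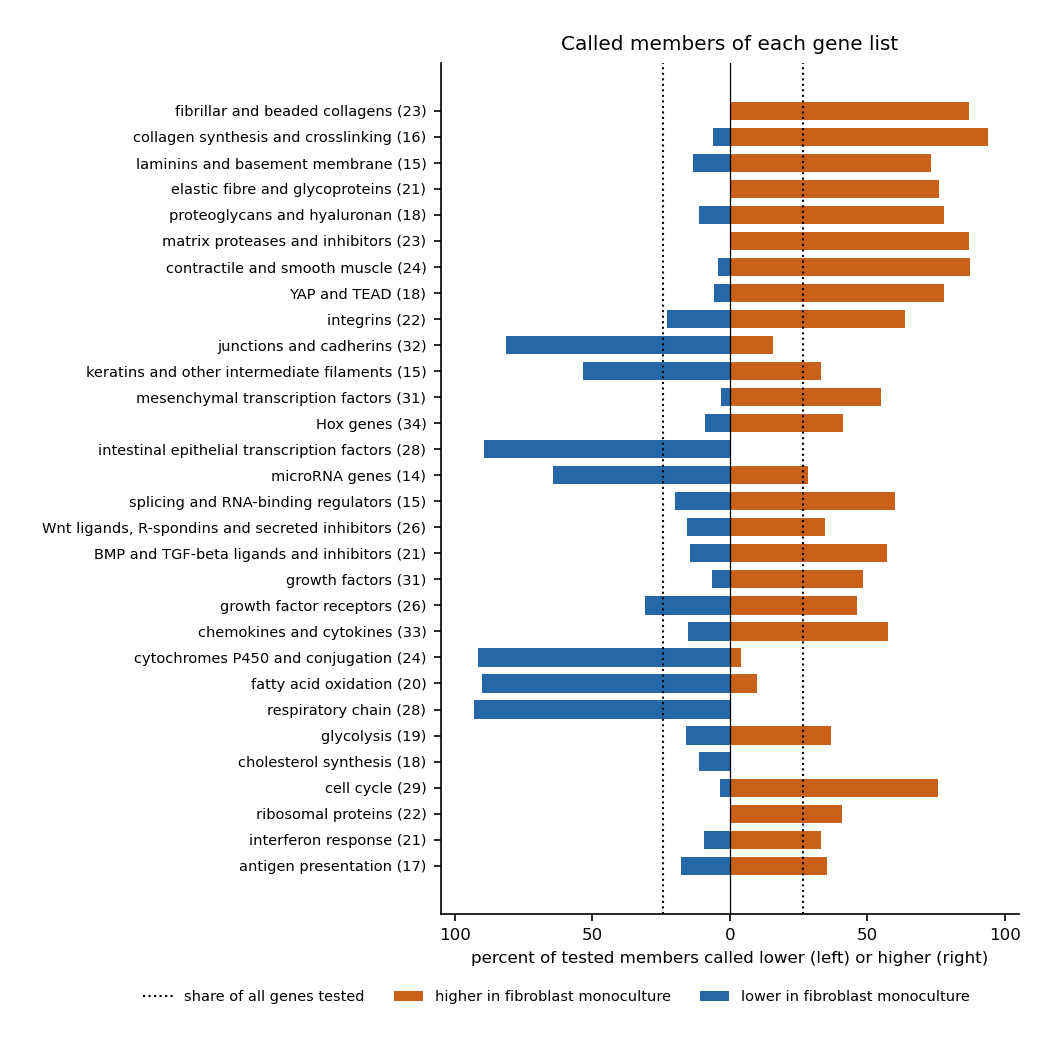
Percent of the tested members of 30 gene lists that were lower (blue, to the left) or higher (orange, to the right) in myofibroblast than in epithelium monoculture, with the number tested beside each name. Dotted lines mark the shares over all tested genes, 26.5% higher and 24.2% lower. Collagens reached 87% higher, and cytochromes P450 91.7% and the respiratory chain 92.9% lower.

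Contractile genes rose in 21 of 24 cases and fell in 1 (median 3.65). Acta2, smooth muscle alpha-actin and the usual marker of myofibroblasts, read 13.01, 12.99 and 13.04 on the myofibroblast arrays and 4.92 and 5.39 on the epithelium arrays, a difference of 7.86 (SE 0.37, adjusted p = 4.62e-09). Cnn1 (calponin) read 11.60, 11.74 and 12.05 in myofibroblasts, against 4.03 and 3.24 in epithelium, a difference of 8.16 (SE 0.27, adjusted p = 2.37e-10). Myl9, a myosin light chain, read 10.60, 10.81 and 11.32 in myofibroblasts, against 4.05 and 4.32 in epithelium, a difference of 6.72 (SE 0.22, adjusted p = 2.15e-10). The myofibroblast arrays lay within 1 log2 unit of each other for these genes. Actg2 (8.04, SE 0.33, adjusted p = 1.45e-09), Tagln (6.66, SE 0.21, adjusted p = 1.69e-10) and Cald1 (6.44, SE 0.33, adjusted p = 9.04e-09) rose as well. Myh14, a non-muscle myosin of epithelia, fell (-6.44, SE 0.26, adjusted p = 1.44e-09), while its relative Myh10 rose (5.58, SE 0.53, adjusted p = 2.43e-06). Mylk (0.34, SE 0.24, adjusted p = 0.258) and Pdlim3 (0.64, SE 0.39, adjusted p = 0.195) did not pass. In the YAP and TEAD list, which holds targets and partners of these mechanically regulated cofactors, 14 of 18 rose (median 3.48), with Ccn2 at 6.94 (SE 0.39, adjusted p = 2.10e-08), Ccn1 at 6.01 (SE 0.32, adjusted p = 1.50e-08) and Ankrd1 at 6.48 (SE 0.96, adjusted p = 1.10e-04). Ankrd1 read 9.32, 9.97 and 11.83 in myofibroblasts, against 3.77 and 4.02 in epithelium.

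Integrin and junction genes were split between the cell types. Of 22 integrin genes 14 rose and 5 fell. The fibronectin receptor subunit Itga5 read 11.36, 11.59 and 11.98 on the myofibroblast arrays and 4.45 and 3.95 on the epithelium arrays, a difference of 7.44 (SE 0.25, adjusted p = 2.53e-10), and Itga11, a collagen receptor of fibroblasts, differed by 7.27 (SE 0.36, adjusted p = 7.64e-09). Itgb2, an integrin subunit of leukocytes, rose too (6.34, SE 0.29, adjusted p = 3.48e-09), beside the macrophage markers given above. Itgb4 (-5.25, SE 0.29, adjusted p = 1.74e-08) and Itga6 (-3.43, SE 0.57, adjusted p = 2.68e-04), which pair in hemidesmosomes, and Itga3 (-3.40, SE 0.31, adjusted p = 1.57e-06) fell. Of 32 junction genes 26 fell and 5 rose (median -4.001), with 3 called higher without the first or second epithelium array or the second myofibroblast array. Cdh1 (E-cadherin) read 3.44, 4.01 and 4.03 on the myofibroblast arrays and 11.34 and 11.49 on the epithelium arrays, a difference of -7.59 (SE 0.35, adjusted p = 3.69e-09). Cdh2 (N-cadherin) read 8.51, 8.77 and 8.80 in myofibroblasts, against 3.01 and 2.61 in epithelium, a difference of 5.88 (SE 0.18, adjusted p = 1.40e-10). The 2 cadherins thus lay on opposite sides with no overlap of arrays. Dsg2 (-7.70, SE 0.33, adjusted p = 2.12e-09), Dsp (-6.93, SE 0.58, adjusted p = 8.29e-07) and Cldn7 (-7.21, SE 0.27, adjusted p = 7.46e-10) fell, and Cdh11 (6.39, SE 0.25, adjusted p = 1.10e-09) and the connexin Gja1 (4.59, SE 0.62, adjusted p = 5.28e-05) rose. Cldn1 (1.73, SE 0.64, adjusted p = 0.0413, lost without myofibroblast array 2 or 3 or epithelium array 1 or 2, adjusted p from 0.063 to 0.17) and Cdh3 (1.65, SE 0.61, adjusted p = 0.0415, lost without myofibroblast array 2 or epithelium array 1 or 2, adjusted p from 0.11 to 0.15) rose by less. Among intermediate filaments Vim (vimentin) rose (7.42, SE 0.18, adjusted p = 2.35e-11) and Krt20 (-8.58, SE 0.58, adjusted p = 1.21e-07), Krt8 (-8.19, SE 0.21, adjusted p = 3.30e-11) and Krt18 (-7.25, SE 0.20, adjusted p = 5.83e-11) fell.

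Genes of a family or of a shared function were set side by side in chosen pairs, with 1 member taken as epithelial and 1 as mesenchymal. The share of such splits among other gene pairs was not measured. In 20 of 40 pairs the epithelial member fell and the mesenchymal member rose. These included Lgals4 (-8.78) with Lgals1 (7.77), both galectins, Anxa13 (-8.09) with Anxa6 (6.13), both annexins, Vil1 (-8.87) with the actin bundler Fscn1 (6.35), Gata4 (-5.15) with Gata2 (3.88), and Klf5 (-5.89) with Klf2 (2.33). In 5 pairs the epithelial member did not pass and the mesenchymal member rose. Of these, Fgfr2 (-0.11, SE 0.72, adjusted p = 0.918) and Ddr1 (-0.08, SE 0.23, adjusted p = 0.816) did not pass, while Fgfr1 (6.65, SE 0.18, adjusted p = 5.24e-11) and Ddr2 (7.20, SE 0.31, adjusted p = 2.03e-09) rose. In 9 pairs both members rose, as for the laminin chains Lama5 (2.65, SE 0.31, adjusted p = 1.46e-05) and Lama2 (4.14, SE 0.62, adjusted p = 1.23e-04). In 3 pairs the epithelial member fell and the mesenchymal member did not pass, and 3 pairs had a member that was not measured.

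Genes of the Wnt pathway that act outside the cell rose in 9 of 26 cases and fell in 4, shares of 34.6% and 15.4% beside the background of 26.5% and 24.2%. Rspo3, an R-spondin that amplifies Wnt signals in stem cells, read 10.04, 8.996 and 9.11 on the myofibroblast arrays and 3.16 and 3.78 on the epithelium arrays, a difference of 5.91 (SE 0.37, adjusted p = 6.18e-08). The other R-spondins Rspo1 (0.55, SE 0.35, adjusted p = 0.214) and Rspo2 (1.11, SE 0.49, adjusted p = 0.0811) did not pass. Wnt5a, a non-canonical ligand of gut mesenchyme, read 6.87, 7.50 and 7.54 in myofibroblasts, against 3.98 and 4.25 in epithelium, a difference of 3.19 (SE 0.32, adjusted p = 4.32e-06). The inhibitors Dkk3 (5.76, SE 0.33, adjusted p = 3.04e-08), Dkk2 (5.42, SE 0.27, adjusted p = 7.64e-09) and Sfrp1 (4.61, SE 0.77, adjusted p = 2.80e-04) rose. Wnt3, the ligand that Paneth cells make, fell (-1.59, SE 0.19, adjusted p = 1.47e-05). Among 19 receptors 8 rose, led by Fzd2 (4.34, SE 0.31, adjusted p = 2.03e-07), and Rnf43, Fzd5 (-3.33, SE 0.29, adjusted p = 1.15e-06) and the R-spondin receptor Lgr4 (-2.72, SE 0.19, adjusted p = 1.46e-07) fell.

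BMP and TGF-beta ligands and inhibitors rose in 12 of 21 cases and fell in 3 (median 2.08), with 1 fall called without the first myofibroblast array and 0 without the second or without either epithelium array. Grem1, a secreted BMP antagonist of the tissue around the crypt, read 11.99, 11.56 and 11.45 on the myofibroblast arrays and 2.47 and 2.56 on the epithelium arrays, a difference of 9.15 (SE 0.26, adjusted p = 7.31e-11), or 8.99 against the dim level. The activin subunit Inhba rose (5.72, SE 0.49, adjusted p = 1.07e-06), as did Bmp4 (4.83, SE 0.45, adjusted p = 2.09e-06). Tgfb2 read 7.52, 7.80 and 10.16 in myofibroblasts, against 3.51 and 3.40 in epithelium. Tgfb3 read 8.81, 9.04 and 11.55 in myofibroblasts, against 3.77 and 4.21 in epithelium, and both were highest on the third myofibroblast array, with differences of 5.04 and 5.81. Bmp7 (-1.68, SE 0.56, adjusted p = 0.026, lost without myofibroblast array 1 or 2 or epithelium array 1 or 2, adjusted p from 0.059 to 0.1), Bambi (-0.88, SE 0.31, adjusted p = 0.0341, lost without myofibroblast array 2 or 3 or epithelium array 1 or 2, adjusted p from 0.081 to 0.13) and Bmp8b (-0.84, SE 0.31, adjusted p = 0.0369, lost without myofibroblast array 1 or 2 or epithelium array 1 or 2, adjusted p from 0.086 to 0.17) fell. Of 12 receptors 9 rose, led by the co-receptor Eng (6.21, SE 0.15, adjusted p = 2.20e-11), and Acvr1b fell (-1.99, SE 0.68, adjusted p = 0.028, lost without myofibroblast array 2 or 3 or epithelium array 1 or 2, adjusted p from 0.057 to 0.11). In the Hedgehog list 9 of 12 rose, among them the signal transducer Smo (5.39, SE 0.54, adjusted p = 4.11e-06) and the effectors Gli3 (4.997 (SE 0.25, adjusted p = 7.21e-09)) and Gli2 (2.33, SE 0.28, adjusted p = 1.76e-05). The ligand Ihh read 3.63, 4.08 and 3.72 on the myofibroblast arrays and 8.42 and 8.22 on the epithelium arrays, a difference of -4.51 (SE 0.44, adjusted p = 3.11e-06), and was the gene of the list that fell. Gli1 and Hhip, which report active signalling, were dim in all groups.

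Growth factors rose in 15 of 31 cases and fell in 2 (median 1.33). Csf1, the macrophage growth factor, read 11.93, 11.58 and 11.55 on the myofibroblast arrays and 3.76 and 4.65 on the epithelium arrays, a difference of 7.48 (SE 0.31, adjusted p = 1.42e-09). Hgf, the ligand of Met, read 8.36, 7.30 and 6.88 in myofibroblasts, against 3.01 and 2.82 in epithelium, a difference of 4.60 (SE 0.57, adjusted p = 2.44e-05). Nrg1 (neuregulin 1) read 8.56, 8.58 and 9.98 in myofibroblasts, against 4.11 and 4.04 in epithelium, a difference of 4.96 (SE 0.91, adjusted p = 6.16e-04). Each was above epithelium on every myofibroblast array. Ereg (epiregulin) rose (6.12, SE 0.64, adjusted p = 6.15e-06), and Fgf7, which acts on epithelium, read 9.54, 9.75 and 5.73 in myofibroblasts, against 2.46 and 2.68 in epithelium, a difference of 5.77 (SE 1.12, adjusted p = 9.30e-04), and 7.08 without the third myofibroblast array (adjusted p = 3.05e-05). Tgfa (-3.63, SE 0.28, adjusted p = 4.24e-07) and Kitl (-2.59, SE 0.39, adjusted p = 1.44e-04) fell. Of 26 receptors 12 rose and 8 fell. Axl (8.32, SE 0.25, adjusted p = 1.24e-10) and Pdgfrb (7.42, SE 0.25, adjusted p = 3.09e-10) led the rises. Erbb3, the neuregulin receptor, read 4.80, 5.08 and 4.21 on the myofibroblast arrays and 11.09 and 11.14 on the epithelium arrays, a difference of -6.42 (SE 0.23, adjusted p = 4.47e-10), and Erbb2 (-2.46, SE 0.17, adjusted p = 1.47e-07) and Fgfr4 (-2.92, SE 0.90, adjusted p = 0.0172, lost without epithelium array 1, adjusted p = 0.1) fell as well.

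Matched ligands and receptors were set side by side for 59 pairs. The share of such patterns among other gene pairs was not measured. In 14 pairs both genes were higher in myofibroblasts, and in 6 both were lower. Receptors alone were higher in 11 pairs whose ligand did not pass, and ligands alone in 8 pairs whose receptor did not pass. In 5 pairs the ligand was higher and the receptor lower: Hgf with Met (-2.08, SE 0.41, adjusted p = 0.00109), Nrg1 with Erbb3, Rspo3 with Lgr4, Gdnf (1.33, SE 0.15, adjusted p = 1.30e-05) with Ret, and Wnt2b (0.95, SE 0.31, adjusted p = 0.0237, lost without myofibroblast array 1 or epithelium array 1 or 2, adjusted p from 0.062 to 0.12) with Fzd5. In 2 the ligand was lower and the receptor higher: Tgfa with Egfr (2.41, SE 0.25, adjusted p = 5.32e-06) and Ihh with Ptch1 (0.54, SE 0.21, adjusted p = 0.0473, lost without myofibroblast array 1 or 2 or epithelium array 1 or 2, adjusted p from 0.089 to 0.17). Pairs within myofibroblasts included Csf1 with Csf1r, which is also a macrophage marker, Gas6 (4.03, SE 1.16, adjusted p = 0.0117, lost without epithelium array 1, adjusted p = 0.15) with Axl, and Pdgfc (4.14, SE 0.71, adjusted p = 3.61e-04) with Pdgfra. Pairs within epithelium included Guca2a (-6.78, SE 0.62, adjusted p = 1.84e-06) with Gucy2c (-8.82, SE 1.80, adjusted p = 0.0013), the guanylin hormone and its receptor, and Kitl with Kit. These are levels in separate cultures and do not show that a signal passed.

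**Figure D4:**
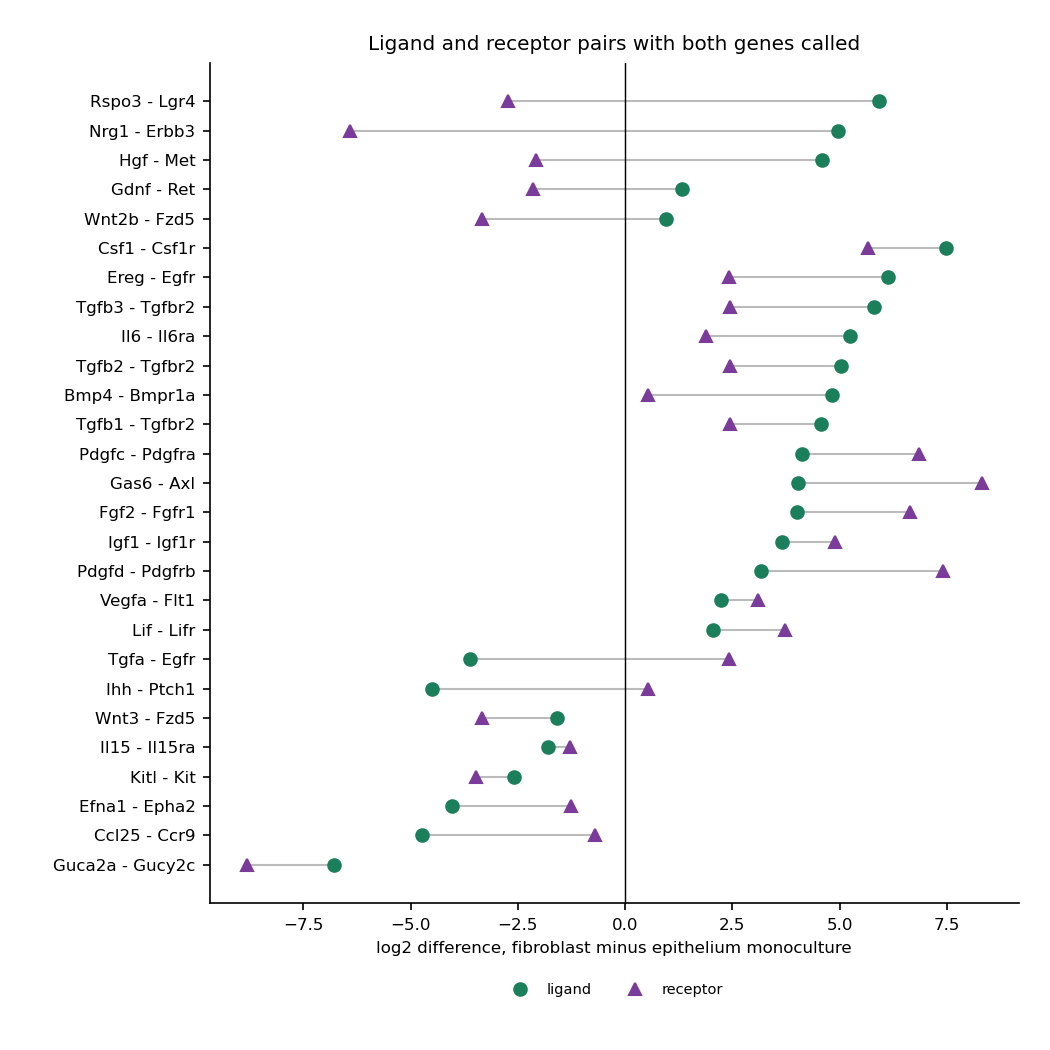
Log2 difference, myofibroblast minus epithelium monoculture, of the ligand (green circle) and the receptor (purple triangle) of the 27 pairs in which both genes were called. Pairs at the top have a higher ligand and a lower receptor, led by Rspo3 (5.91) with Lgr4 (-2.72), and the pair at the bottom, Guca2a (-6.78) with Gucy2c (-8.82), has both lower.

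Chemokines and cytokines rose in 19 of 33 cases and fell in 5 (median 1.94). Ccl2, which attracts monocytes, read 12.22, 12.20 and 11.54 on the myofibroblast arrays and 2.74 and 3.41 on the epithelium arrays, a difference of 8.91 (SE 0.54, adjusted p = 4.39e-08). Cxcl12, a chemokine of stromal cells, read 8.85, 9.99 and 9.24 in myofibroblasts, against 3.66 and 3.32 in epithelium, a difference of 5.87 (SE 0.37, adjusted p = 6.63e-08). Il1b, a cytokine of macrophages, read 9.14, 10.40 and 8.75 in myofibroblasts, against 2.79 and 3.05 in epithelium, a difference of 6.51 (SE 0.48, adjusted p = 2.68e-07). These 3 were above epithelium on every myofibroblast array, as was the macrophage list. Ccl3 (8.74, SE 0.52, adjusted p = 3.51e-08) and Ccl7 (8.19, SE 0.34, adjusted p = 1.62e-09) rose as well, and Il6 rose by 5.25 (SE 0.64, adjusted p = 2.17e-05). Ccl25, the chemokine of small intestinal epithelium that draws T cells, read 5.77, 5.87 and 5.88 on the myofibroblast arrays and 10.56 and 10.58 on the epithelium arrays, a difference of -4.73 (SE 0.34, adjusted p = 2.19e-07), and Il18 (-4.03, SE 1.02, adjusted p = 0.00566), Ccl28 (-3.17, SE 0.29, adjusted p = 1.84e-06) and Il15 (-1.80, SE 0.42, adjusted p = 0.00342) fell with it. Of 10 prostaglandin E2 genes 4 rose and 4 fell (median -0.02), and the sign of that median changed without the second epithelium array or the first myofibroblast array. The synthesis genes Ptgs2 (9.20, SE 0.78, adjusted p = 8.77e-07), Pla2g4a (6.02, SE 0.41, adjusted p = 1.23e-07) and Ptges (4.20, SE 1.29, adjusted p = 0.0169) rose, and Hpgd, the enzyme that degrades the product, fell (-6.79, SE 0.48, adjusted p = 1.86e-07). Of the other synthases Ptges2 fell (-1.21, SE 0.27, adjusted p = 0.00262) and Ptges3 did not pass (0.13, SE 0.17, adjusted p = 0.563). Ptges read 9.79, 9.56 and 5.40 on the myofibroblast arrays and 3.87 and 4.23 on the epithelium arrays, so the third myofibroblast array lay near epithelium. Its call was lost without myofibroblast array 1 or 2 or epithelium array 1 or 2, adjusted p from 0.059 to 0.085, and the difference was 5.63 without the third myofibroblast array (adjusted p = 7.97e-04). The receptors Ptger4 (-2.61, SE 0.35, adjusted p = 4.38e-05) and Ptger3 (-0.62, SE 0.22, adjusted p = 0.0296, lost without myofibroblast array 2 or 3 or epithelium array 1 or 2, adjusted p from 0.057 to 0.11) fell and Ptger2 rose (2.50, SE 0.45, adjusted p = 5.52e-04), and the transporter Slco2a1 did not pass (-0.16, SE 0.24, adjusted p = 0.601).

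Contact and guidance genes had members in both directions. In the Notch list 4 of 18 rose and 6 fell, 22.2% and 33.3% beside the background of 26.5% and 24.2%. The ligands Dll4 (-4.24, SE 0.61, adjusted p = 8.46e-05) and Dll1 (-3.34, SE 0.45, adjusted p = 5.55e-05), made by secretory epithelial cells, fell, and Notch2 rose (4.01, SE 0.30, adjusted p = 2.70e-07). The number of Notch genes called higher was 1 without the first epithelium array, 2 without the second and 2 without the third myofibroblast array. In the Eph list 8 of 18 rose, led by Efna5 (4.43, SE 0.55, adjusted p = 2.60e-05), and 4 fell, led by Epha1 (-5.74, SE 0.24, adjusted p = 1.62e-09) and Efna1 (-4.03, SE 0.26, adjusted p = 6.78e-08), shares of 44.4% and 22.2%. Among 30 semaphorin, slit and netrin genes 10 rose, led by Slit3 (5.88, SE 0.33, adjusted p = 2.29e-08) and its receptor Robo1 (5.40, SE 1.13, adjusted p = 0.00162), and 6 fell, led by Sema4g (-5.39, SE 1.15, adjusted p = 0.00177) and Sema4a (-4.86, SE 0.30, adjusted p = 5.41e-08), shares of 33.3% and 20%.

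Metabolic genes were mostly lower in myofibroblasts. Of 24 cytochrome P450 and conjugation genes 22 fell (median -7.06). Cyp3a13, a drug-metabolising enzyme, read 2.02, 2.05 and 1.94 on the myofibroblast arrays and 11.01 and 11.35 on the epithelium arrays, a difference of -9.18 (SE 0.18, adjusted p = 6.52e-12), or -8.50 against the dim level. Ces2a, a carboxylesterase, fell (-9.11, SE 0.75, adjusted p = 7.30e-07), and Cyp27a1 did not pass (-0.53, SE 0.60, adjusted p = 0.5). The exception was Cyp1b1, a P450 outside the liver and gut epithelium, which read 11.33, 11.14 and 10.04 in myofibroblasts, against 3.58 and 3.23 in epithelium, a difference of 7.43 (SE 0.43, adjusted p = 2.84e-08). Of 20 fatty acid oxidation genes 18 fell (median -2.13), including the regulators Ppara (-5.46, SE 0.20, adjusted p = 4.66e-10), Ppargc1a (-5.43, SE 0.36, adjusted p = 9.12e-08) and Pparg (-5.03, SE 0.71, adjusted p = 7.85e-05). Cpt1c (5.30, SE 0.43, adjusted p = 6.26e-07), the brain-type carnitine palmitoyltransferase, and Acsl4 (2.64, SE 0.35, adjusted p = 4.95e-05) rose. The respiratory chain fell in 26 of 28 cases with smaller differences (median -1.19). Its mean level was 7.96, 8.03 and 8.06 on the myofibroblast arrays and 9.21 and 9.22 on the epithelium arrays. Cyc1, a cytochrome of complex III, read 7.63, 7.79 and 7.73 on the myofibroblast arrays and 10.34 and 10.21 on the epithelium arrays, a difference of -2.56 (SE 0.16, adjusted p = 6.44e-08). Atp5g1 (-1.16, SE 0.46, adjusted p = 0.0513) and Ndufa2 (-0.36, SE 0.18, adjusted p = 0.113) did not pass.

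Glycolysis genes did not move one way: 7 of 19 rose and 3 fell (5 without the first myofibroblast array), with a median of 0.06 that turned negative without the first epithelium array or without the first or second myofibroblast array. The shares that rose and fell were 36.8% and 15.8%, beside the background of 26.5% and 24.2%. The liver and gut pyruvate kinase Pklr fell (-7.80, SE 0.31, adjusted p = 1.04e-09), as did Aldoc (-4.08, SE 0.31, adjusted p = 2.95e-07), and Slc2a1, the glucose carrier GLUT1, rose (1.62, SE 0.21, adjusted p = 3.71e-05) with Hk2 (1.65, SE 0.20, adjusted p = 1.67e-05) and Hk1 (1.57, SE 0.29, adjusted p = 7.35e-04). Cholesterol synthesis genes had 2 calls among 18 genes, Ebp (-1.72, SE 0.22, adjusted p = 2.93e-05) and Mvk (-1.12, SE 0.39, adjusted p = 0.0298, lost without myofibroblast array 3 or epithelium array 1 or 2, adjusted p from 0.082 to 0.13). Their mean level was 10.01, 10.01 and 8.49 on the myofibroblast arrays and 10.54 and 10.53 on the epithelium arrays, so the third myofibroblast array was the low one. The number called was 1 without it or without either epithelium array, and 6 without the second myofibroblast array.

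Cell cycle genes rose in 22 of 29 cases (median 1.68), and in 14 without the first epithelium array, with a mean level of 8.65, 8.56 and 7.66 on the myofibroblast arrays and 6.52 and 6.86 on the epithelium arrays. The largest rises were Cdk6 (3.29, SE 0.26, adjusted p = 4.68e-07) and Ccnd2 (3.03, SE 0.15, adjusted p = 5.52e-09), both of which drive entry into the cycle. Rrm2, a ribonucleotide reductase subunit, read 8.71, 8.57 and 6.98 on the myofibroblast arrays and 5.30 and 5.37 on the epithelium arrays, a difference of 2.75 (SE 0.47, adjusted p = 3.76e-04), and 3.30 without the third myofibroblast array (adjusted p = 1.29e-05). Mki67, the proliferation marker, did not pass (0.94, SE 0.53, adjusted p = 0.162), and Pcna, the replication clamp, fell (-0.75, SE 0.23, adjusted p = 0.0147, lost without epithelium array 1, adjusted p = 0.1). Cdkn2a, a cell cycle inhibitor that rises in cultured fibroblasts, was higher (2.61, SE 0.48, adjusted p = 6.43e-04). Of 15 genes of stress in culture 11 rose, led by Hmox1 (3.93, SE 0.30, adjusted p = 3.74e-07), and 0 fell, also 0 at an unadjusted p under 0.05, with 7 called without the first epithelium array.

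Housekeeping lists had medians near 0. Proteasome and core transcription genes had a median of 0.10, with 8 of 29 higher and 2 lower, and ribosomal protein genes a median of 0.35 with 9 of 22 higher and 0 lower, at an unadjusted p under 0.05 10 higher and 0 lower. The ribosomal count of higher genes was 5 and 3 without the first and without the second epithelium array, 5 and 3 without the first and without the second myofibroblast array, and 3 when the 5 monoculture arrays were fitted alone. Interferon response genes rose in 7 of 21 cases and fell in 2, shares of 33.3% and 9.5% beside the background of 26.5% and 24.2%. The rises were led by Bst2 (3.53, SE 0.39, adjusted p = 8.43e-06) and Gbp3 (3.19, SE 0.59, adjusted p = 6.65e-04), while Oasl1 fell (-4.46, SE 0.52, adjusted p = 1.51e-05). Of 17 antigen presentation genes 6 rose and 3 fell, shares of 35.3% and 17.6% beside the same background. Cd80, a costimulatory ligand of myeloid cells, rose (4.98, SE 0.40, adjusted p = 5.67e-07), and Btnl1, a butyrophilin-like gene of gut epithelium that sustains local gamma-delta T cells, read 2.44, 2.26 and 2.33 on the myofibroblast arrays and 10.43 and 10.24 on the epithelium arrays, a difference of -7.99 (SE 0.14, adjusted p = 5.48e-12). Btnl2 fell too (-5.85, SE 0.19, adjusted p = 2.37e-10).

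The third myofibroblast array stood apart from the other 2. Over all tested genes the SD of the log2 difference was 0.416 between the first and second myofibroblast arrays and 0.411 between the 2 epithelium arrays, and the third myofibroblast array gave 0.633 against the first and 0.591 against the second. Among the 3 myofibroblast arrays 420 genes ranged by more than 2 log2 units. The genes below were chosen for their range, so they are described and not tested. Adm (adrenomedullin) read 11.09, 10.03 and 4.65 on the myofibroblast arrays and 3.80 and 3.71 on the epithelium arrays. Cxcl5, a neutrophil chemokine, read 12.07, 11.23 and 6.83 in myofibroblasts, against 4.09 and 3.30 in epithelium. Mmp3 (stromelysin 1) read 10.86, 9.32 and 5.35 in myofibroblasts, against 3.06 and 2.72 in epithelium. On these genes the third array lay near or toward epithelium and the other 2 high above it. Igfbp2 read 3.89, 3.80 and 9.19 on the myofibroblast arrays and 3.67 and 3.66 on the epithelium arrays. Ptprz1 read 3.63, 5.13 and 9.66 in myofibroblasts, against 2.03 and 1.89 in epithelium, with the third array the high one. Chemokine list means were 7.72, 7.59 and 6.67 on the myofibroblast arrays and 4.88 and 4.79 on the epithelium arrays. Of the epithelium genes Vsig1 read 2.31, 1.90 and 2.19 on the myofibroblast arrays and 3.23 and 8.21 on the epithelium arrays. Slc5a8 read 3.45, 3.37 and 3.58 in myofibroblasts, against 8.06 and 3.54 in epithelium, each high on a different epithelium array. Without the third myofibroblast array 4744 genes were higher and 4098 lower.

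**Figure D5:**
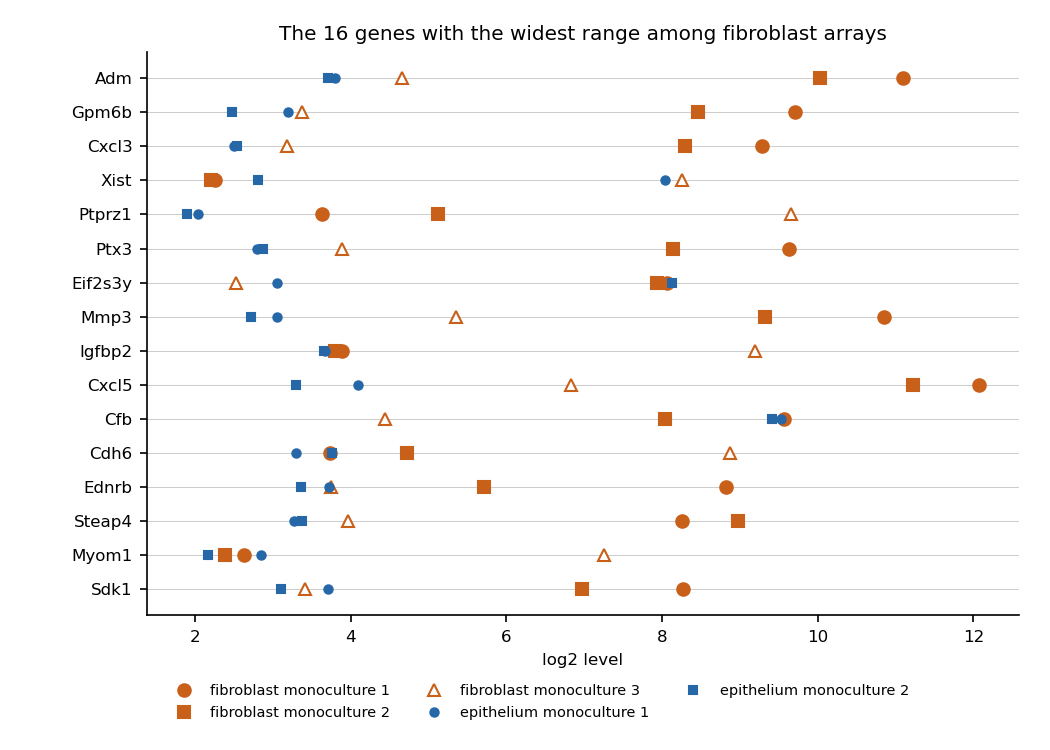
Log2 level on each array of the 16 tested genes with the widest range among the myofibroblast arrays. Orange symbols are myofibroblast monocultures (the third array open) and blue symbols epithelium monocultures. The third array was the lowest myofibroblast array for 11 of these genes and the highest for 5. Xist and Eif2s3y are among them.

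The same contrast was made between the cell types after co-culture, with other arrays from the same animals. There 8168 genes (45.1% of all tested) were called in either direction. Of the monoculture calls 6904 (75.3%) were called with the same sign, which is 84.5% of the co-culture calls, and 23 were called with the opposite sign. The test of the difference between both contrasts called 200 genes (1.11% of all tested), 185 of them among the monoculture calls. That count was 56 without the first epithelium array, 128 without the second, 115 without the second myofibroblast array, and 1383 with animal as a random block. Monoculture and co-culture arrays share animals, and the cause of these changes in the count was not tested. The gap between cell types was wider in monoculture for 157 of the 200 genes and narrower for 43. Nid1 differed by 6.76 in monoculture and by 3.24 in co-culture. Ccnd1, a D-type cyclin, differed by 2.05 in monoculture and by -1.19 in co-culture, and Krt80, an epithelial keratin, by 0.83 in monoculture (lost without myofibroblast array 2 or epithelium array 2, adjusted p from 0.1 to 0.4) and -2.81 in co-culture. The contrasts for Epcam (-8.10 in monoculture and -7.91 in co-culture) and Col1a1 (8.54 in monoculture and 8.35 in co-culture) did not pass the test of their difference.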

How the data were processed

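RNA of 16 samples was measured on 1-colour GeneChip arrays after amplification of 150 ng with the Ambion WT Expression kit, per the labels' protocols. The authors deposited log2 levels per probe set. RMA, which corrects background, normalizes between arrays and summarises probes, made them, per the submitters' processing notes. For its version and for the array's annotation build nothing was given in the sources used here. RMA makes arrays alike in distribution, so levels are relative within an array and low levels are compressed. Precision is limited by how few arrays there were.

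Of 41345 probe sets, 23521 had 1 gene symbol in the platform annotation, 1814 had several and 16010 had none. Of several probe sets for a gene, the brightest on average was kept. Genes whose highest group mean was at or under the dim level were left out (4085 of 22180). Repeat arrays of an adenoma animal were averaged, giving 14 samples in 5 groups. limma 3.58.1 in R 4.3.3 fitted a mean per group over all of them, so the spread is shared and has 11.7 degrees of freedom after moderation, and calls were made at a Benjamini-Hochberg adjusted p under 0.05. The fit was also run on simulated data with known changes. Noise there was independent between samples, so that run could not test dependence between samples of an animal. A title number shared by both cell types marks different animals, and samples with the same number did not deviate together (correlations of deviations -0.05 and 0.0002). Monocultures and co-cultures of an animal did (0.33 for P28, 0.62 for Pl_I, 0.51 for Pl_II and 0.79 for Pl_III). The main fit treated them as independent, so its degrees of freedom overstate the number of independent animals.

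The gene lists and the comparison were chosen with earlier results of these data known. Named genes were the 15 largest rises and falls, up to 6 of the largest called members of a list in each direction, members moving against their list or not passing where there were few, cell type markers, and pairs. Others, among them Adm, Cxcl5, Mmp3, Igfbp2, Ptprz1, Vsig1, Slc5a8, Eln, Mki67, Hoxa6 and Hoxd8, were chosen after their values were seen. Alternatives changed the filter, the samples fitted, the normalization, the variance prior, the probe set rule, the threshold, the block and the arrays left out. Promoter and microRNA sequences were matched by symbol.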

Additional observations from a re-analysis of the deposited data

Results flagged for a closer look

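For 11 genes named in the report the difference between myofibroblasts and epithelium was not the same in monoculture and co-culture, by the test of that difference itself (limma interaction term). The monoculture difference minus the co-culture difference was 3.64 (SE 0.41, adjusted p = 0.00271) for Krt80, 3.52 (SE 0.40, adjusted p = 0.00271) for Nid1, 3.24 (SE 0.40, adjusted p = 0.00397) for Ccnd1, 2.91 (SE 0.50, adjusted p = 0.0198) for Msln, 2.41 (SE 0.21, adjusted p = 4.93e-04) for Ccnd2, 2.29 (SE 0.37, adjusted p = 0.015) for Cdk6 and 2.26 (SE 0.43, adjusted p = 0.0335) for Bmp8b. It was 1.74 (SE 0.28, adjusted p = 0.0143) for Hk2, 1.67 (SE 0.35, adjusted p = 0.0484) for Egfr, 1.52 (SE 0.26, adjusted p = 0.0204) for Prom1 and 1.47 (SE 0.28, adjusted p = 0.0313) for Grhl1. All 11 values were positive, as were 151 of the 200 over all genes. The difference was above 0 in both conditions and the gap wider in monoculture for Nid1, Ccnd2, Cdk6 and Egfr. It was below 0 in both, and the gap wider in co-culture, for Msln, Bmp8b, Prom1 and Grhl1. For Krt80 and Ccnd1 it was above 0 in monoculture and below 0 in co-culture. For Hk2 it was 1.65 in monoculture and close to 0 in co-culture. Nid1 averaged 12.06 in myofibroblast monoculture and 5.29 in epithelium monoculture, and 11.91 in myofibroblasts and 8.66 in epithelium after co-culture. Ccnd2 averaged 11.34 in myofibroblast monoculture and 8.31 in epithelium monoculture, and 11.34 in myofibroblasts and 10.71 in epithelium after co-culture. Groups of 3 and 2 arrays are too small for the check of single samples that stand apart.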

How the results depend on the processing

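The counts of 4791 higher and 4383 lower genes stayed within 1.5 times under every change of filter, normalization, variance prior, probe set rule and samples fitted, from 4180 to 4800 higher and from 3672 to 4924 lower. They moved further with a minimum size: at least 2-fold left 3271 higher and 2526 lower, and at least 4-fold left 1751 higher and 1353 lower. Leaving out 1 array at a time gave 3894 to 4744 higher and 3588 to 4098 lower genes. The title number as a replicate block, which pairs different animals, gave 4340 higher and 3496 lower. The animal as a random replicate block gave 4827 and 4299 and lost 2 of 280 named calls, those of Krt80 and Ptger3. Making the proteasome list equal on every array moved the median of all genes to -0.116 and the share of higher among called genes to 46.6%, against 52.2%.

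The 200 genes whose cell type difference differed between monoculture and co-culture were less stable. The count was 40 at an adjusted p under 0.01, 47 at 4-fold, 1383 with the animal block, 56 to 164 with 1 array left out, and 37 without the first epithelium and the third myofibroblast arrays together, and the cause was not tested. Among the 280 named calls 25 were lost without both of those arrays, including Il18, Olfm4, Hyal2 and Mir200c, none reversed, and all lost without a single array are given in the report except Adm. The 6 lists whose median changed sign under some setting (other leukocytes, neurons and glia, prostaglandin E2, Notch, glycolysis and the proteasome) had medians from -0.19 to 0.10 as reported. Where a gene had a further probe set, it could differ far less: Bgn read 6.44, Ccn2 0.72, Msn 0.42, Cyp2c55 -0.88 and Dsg2 -1.27 on theirs. Signals near the dim level limit what can be said of low genes.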
